A study of Homo sapiens with 9 samples.

Results

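The genes described here encode the nuclear pore complex and the soluble machinery that carries cargo through it. They were taken from the deposited table by symbol, as NUP, KPNA, KPNB, IPO and XPO genes together with RAN, RANBP1, RANBP2, RANGAP1, RCC1, CSE1L, TNPO1 and NUTF2. This gave 49 of the 18522 genes in the table. Poly(A) RNA was sequenced from THP-1, an established human line of acute monocytic leukemia. Cells of all 3 groups received lentivirus with a short hairpin RNA and were kept in puromycin at 1 ug/mL for 96 h. The shCTRL group carried a control hairpin, and the shRASSF2-1 and shRASSF2-2 groups each carried a different hairpin against RASSF2, a Ras association domain family gene. There were 3 libraries per group, and each hairpin was compared with the control and with the other hairpin. Whether replicate libraries were grown as separate cultures is not stated, and p-values therefore reflect the spread between these libraries, which may be technical.

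The nuclear pore is built from nucleoporins that form stacked rings around a channel filled with disordered repeats. Proteins with a nuclear localisation signal are bound by an importin alpha, which is carried through the channel by the importin beta KPNB1, while other receptors of the importin beta family carry their cargo directly. Direction comes from the small GTPase RAN, which is loaded with GTP by RCC1 on chromatin, hydrolyses it at the cytoplasmic face with RANGAP1 and RANBP1, and is returned to the nucleus by NUTF2. Exportins leave the nucleus bound to RAN in its GTP form, and the pore is taken apart and rebuilt at each cell division in animal cells.

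Gene-assigned reads recovered per library ran from 13.3 M to 20.1 M. RASSF2 itself was at 1010 to 1104 normalized reads in shCTRL, at 134 to 198 under shRASSF2-1 and at 262 to 342 under shRASSF2-2, which checked the labels. Control replicates 1 and 2 were sequenced on one flow cell, and control replicate 3 together with all 6 knockdown libraries on the other. Control replicate 1 was the highest of all 9 libraries for 22 of the 49 genes. This count was not made over all genes, so it may reflect that library as a whole. The ratio of control replicate 1 to the mean of the other 2 controls ran from 0.570 for NUP107 to 1.95 for NUP210. Scaling by total reads in place of the authors' size factors moved the median log2 fold change of all genes by 0.37 under shRASSF2-1 and by -0.01 under shRASSF2-2, so directions below are relative to the size factors. Transport genes whose sign or call under shRASSF2-1 turned with total reads are named below with their values there. Levels of the 10 listed myeloid markers in shCTRL were uneven. SPI1 was at 5077 to 6174 normalized reads and LYZ at 5225 to 9530, while CD14 was at only 14.5 to 36.6 and MPO at 50.6 to 59.3. All 18 listed proliferation genes fell with both hairpins, with a median log2 fold change of -1.96 and -2.91, and their summed level was 71630 to 83730 in shCTRL, 17170 to 17360 under shRASSF2-1 and 8925 to 11060 under shRASSF2-2.

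Transport genes were lower after RASSF2 knockdown with either hairpin. Of the 48 genes that passed the filter on low values, 37 fell and 1 rose under shRASSF2-1, where 56.1% of all 15465 genes tested were called, 29.2% lower and 26.9% higher. Under shRASSF2-2, 35 fell and 4 rose, against a background of 60.9% called, 29.1% lower and 31.8% higher. A gene was called when its limma adjusted p was under 0.05. Changes are log2 fold changes against shCTRL unless stated, values are normalized read counts, and where a pair of changes is given the first is that of shRASSF2-1. Both comparisons use the same 3 control libraries. The median log2 fold change of the transport genes was -0.63 under shRASSF2-1 and -0.62 under shRASSF2-2, beside 0.02 and 0.04 over all genes tested. In 29 of the 48 genes, 60.4%, the fall was called with both hairpins, and 16.7% of all genes tested were called lower with both. KPNA5 alone rose with both, and 14.5% of all genes did, so that 30 transport genes and 31.3% of all genes were called in the same direction. The only gene that the filter left out was NUP210L, a pore membrane protein known mainly from testis, with at most 19.4 normalized reads in any library. The proliferation genes moved with these calls, and their part in them was not tested.

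The fall was seen in the single libraries as well as in the tests. All shRASSF2-1 values lay below all control values for 38 of the 48 genes and above them for 1, where 31.3% and 29.9% of all genes tested did so. For shRASSF2-2 this held for 36 and 4 genes, against 30.6% and 33.9%. All 6 knockdown values lay below all 3 control values for 32 of the 48 genes, against 18.6% of all genes tested, and above them for 1 gene, against 15.9%. With both hairpins 8 genes were called and at least 2-fold lower, against 5.51% of all genes tested. They were KPNA2, RANBP1, CSE1L, RCC1, NUP88, NUP155, IPO11 and NUP210. As a share of all reads, which is the same as scaling by total reads, the 49 genes took 0.852%, 0.833% and 0.825% of the reads in the control libraries. They took 0.629%, 0.631% and 0.635% under shRASSF2-1 and 0.579%, 0.570% and 0.577% under shRASSF2-2, so neither knockdown group overlapped the controls. On the authors' size factors their summed level was 131522 to 143584 in shCTRL, 79413 to 81009 under shRASSF2-1 and 95255 to 96259 under shRASSF2-2, so the order of the hairpins depends on the scaling. In bulk RNA, fewer cells of a type and less RNA of a gene per cell cannot be told apart.

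**Figure D1:**
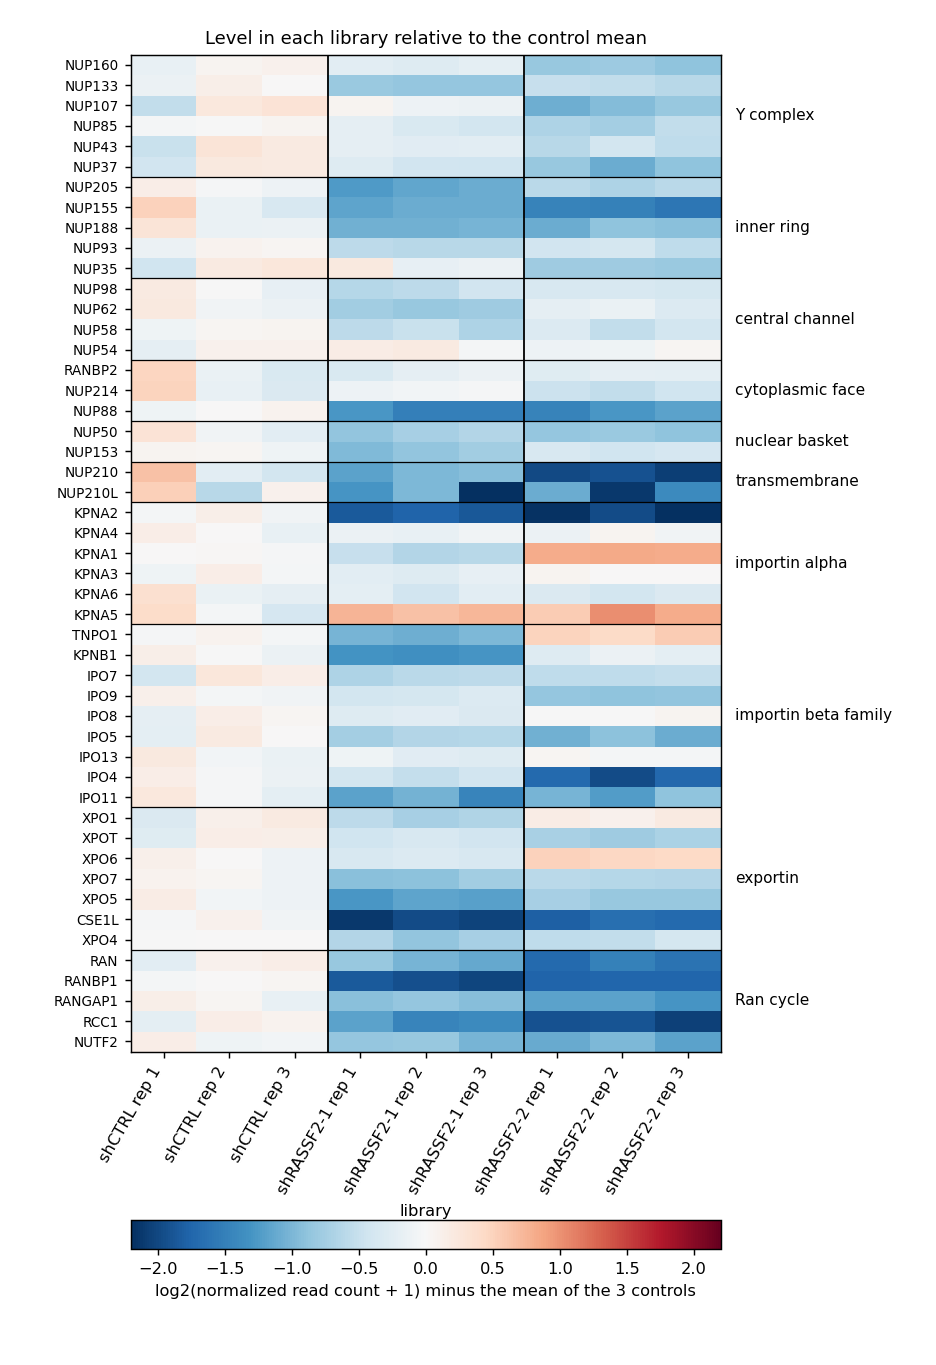
Heat map of log2(normalized read count + 1) minus the mean of the 3 controls, with genes as rows grouped by role and the 9 libraries as columns. Blue marks values under the control mean and red values above it; the scale ends at 2.2 on either side, so the lowest values of NUP210L and KPNA2 share the darkest shade. Most rows are blue in all 6 knockdown libraries, and KPNA1, TNPO1 and XPO6 are blue under shRASSF2-1 and red under shRASSF2-2.

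**Figure D2:**
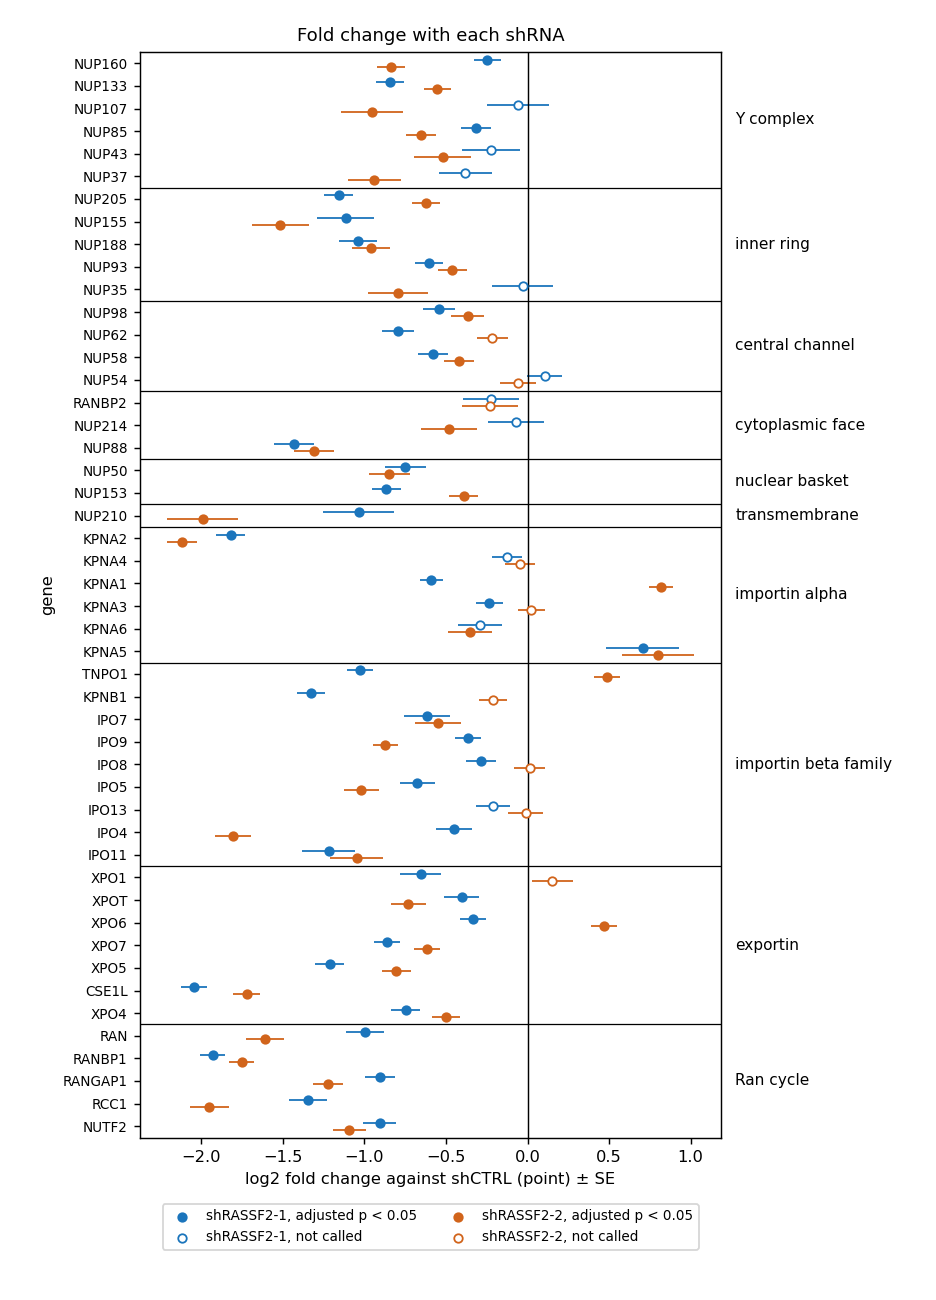
Log2 fold change against shCTRL for the 48 genes tested, shRASSF2-1 in blue and shRASSF2-2 in orange. Points are limma estimates, bars are 1 SE, and filled points were called at an adjusted p under 0.05. The estimates run from -2.04 to 0.71 under shRASSF2-1 and from -2.12 to 0.82 under shRASSF2-2.

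Promoter sequences of 6 genes are shown because these genes carry the contrast in the data. KPNA2, CSE1L, RCC1 and RAN fell with both hairpins, while TNPO1 and KPNA1 fell with one and rose with the other. Each is the 150 bases before the annotated start, 5′ to 3′ on the strand of the gene, from RefSeq, build GRCh38.p14. Capitals mark exact matches, on either strand, to the motifs described after the sequences.
KPNA2, chr17:68035585-68035734, plus strand: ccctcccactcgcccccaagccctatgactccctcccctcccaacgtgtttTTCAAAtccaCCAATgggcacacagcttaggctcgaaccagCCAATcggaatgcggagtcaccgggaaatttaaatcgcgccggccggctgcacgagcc
CSE1L, chr20:49046162-49046311, plus strand: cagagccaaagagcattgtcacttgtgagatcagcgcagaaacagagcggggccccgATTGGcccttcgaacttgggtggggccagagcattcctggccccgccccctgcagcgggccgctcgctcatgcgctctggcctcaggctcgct
RCC1, chr1:28505893-28506042, plus strand: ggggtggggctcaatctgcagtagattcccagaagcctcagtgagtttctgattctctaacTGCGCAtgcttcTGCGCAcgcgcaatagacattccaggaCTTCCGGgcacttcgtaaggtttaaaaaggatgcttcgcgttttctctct
RAN, chr12:130871916-130872065, plus strand: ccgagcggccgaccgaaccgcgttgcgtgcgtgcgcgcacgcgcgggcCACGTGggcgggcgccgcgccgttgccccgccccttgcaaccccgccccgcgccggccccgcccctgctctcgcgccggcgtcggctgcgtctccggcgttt
TNPO1, chr5:72816511-72816660, plus strand: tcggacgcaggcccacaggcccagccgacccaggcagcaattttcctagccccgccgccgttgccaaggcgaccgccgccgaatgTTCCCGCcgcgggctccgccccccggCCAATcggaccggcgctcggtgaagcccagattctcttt
KPNA1, chr3:122514940-122515089, minus strand: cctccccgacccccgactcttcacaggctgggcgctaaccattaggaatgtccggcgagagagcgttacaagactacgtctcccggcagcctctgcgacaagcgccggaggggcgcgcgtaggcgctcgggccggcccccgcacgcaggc

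The motifs were short core sequences of transcription regulators, searched on both strands of a window from 250 bases before to 50 after the start. Neither binding at the motifs nor their part in the changes was tested. Windows were available for 43 of the 49 genes and for 11926 genes tested. The cell cycle homology region, TTTGAA, was in 10 of the 43 transport windows, 23.3%, and in 10.2% of all windows. The E2F core TTCCCGC was also in 10 of 43, against 9.82% of all windows, and the other E2F core, TTGGCGC, in 4 of 43, against 4.74%. The CCAAT box, CCAAT, was in 19 of 43 windows, 44.2%, against 36.1%. Matches of TTGGCGC and of the CCAAT box can overlap, since both hold the letters CCAA or their complement. Matches of the ETS core CCGGAAG stood in 13 of 43 windows, 30.2%, against 17.9%. The NRF1 core TGCGCA was in 8 of 43, against 12.7%, and the E-box CACGTG in 6 of 43, against 9.70%. Among the 27 windows of genes that fell with both hairpins, TTTGAA was in 8, and among the other 16 it was in 2, while CCAAT was in 10 and 9. The same split was 7 and 3 for TTCCCGC, 3 and 1 for TTGGCGC and 6 and 2 for TGCGCA. It was 5 and 1 for CACGTG and 7 and 6 for CCGGAAG. The other 16 include NUP210L, which the filter on low values left out. KPNA2 held CCAAT at 89 and 58 bases before its start and TTTGAA at 99 bases before and 33 after it. In CSE1L, CCAAT lay 93 bases before and TTTGAA 21 bases after the start. RCC1 held TTCCCGC at 192 bases before its start, outside the stretch shown, TGCGCA at 89 and 77 and CCGGAAG at 50. RAN held CACGTG at 102 bases before the start and TTTGAA across it, beginning 3 bases before, so that the latter is not in the stretch shown. TNPO1 held TTCCCGC at 65 and CCAAT at 39 bases before its start, and the KPNA1 window held none of the 7 motifs.

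All 5 genes of the RAN cycle fell with both hairpins. Their median log2 fold change was -0.997 under shRASSF2-1 and -1.61 under shRASSF2-2. RAN, at chromosome 12, 130872066 to 130877678, had 6081, 7613 and 7886 normalized reads in shCTRL, 3996, 3500.2 and 3279 under shRASSF2-1, and 2172, 2538 and 2325 under shRASSF2-2. The 3 groups did not overlap, and the lowest values were those of shRASSF2-2. RAN fell by 1.00 on the log2 scale (SE 0.118, limma adjusted p = 5.15e-05) under shRASSF2-1 and by 1.61 (limma adjusted p = 9.08e-07) under shRASSF2-2. The difference between the hairpins, -0.61, was itself called (limma adjusted p = 0.00122). For RAN, 9 pseudogenes or copies are annotated, none of them among the deposited genes. Whether reads of RAN were lost to them was not tested.

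RCC1, the chromatin-bound exchange factor that loads RAN with GTP, lies at chromosome 1, 28506043 to 28538989. Its values were 1292, 1672 and 1585 in shCTRL, 665, 549.9 and 569 under shRASSF2-1, and 400.2, 405 and 363 under shRASSF2-2. As for RAN, the groups stood in 3 separate steps. The log2 fold changes of RCC1 were -1.35 (SE 0.119, limma adjusted p = 6.78e-06) and -1.95 (limma adjusted p = 2.37e-07), and they differed by -0.61 (limma adjusted p = 0.00133). RANBP1, the cofactor that helps RANGAP1 release RAN from exportins, lies at chromosome 22, 20116104 to 20127355. RANBP1 had 3243, 3356 and 3431 reads in shCTRL, 933, 878 and 821 under shRASSF2-1, and 979.5, 1002 and 992 under shRASSF2-2. Both knockdown groups sat far below the controls, with the shRASSF2-2 values slightly above those of shRASSF2-1. RANBP1 fell by 1.93 (SE 0.0759, limma adjusted p = 7.26e-08) and by 1.75 (limma adjusted p = 2.81e-08), and the hairpins did not differ past the threshold (0.18, limma adjusted p = 0.0658). RANGAP1, the GTPase activator, fell by 0.91 and 1.22, and NUTF2, the carrier that returns RAN to the nucleus, fell by 0.91 and 1.09. In both genes all 6 knockdown values were below all controls.

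The importin alpha family did not move as one. Among its 6 genes, 3 fell and 1 rose under shRASSF2-1, and 2 fell and 2 rose under shRASSF2-2. KPNA2 was the only one called lower with both. The shares over all genes tested, the background for every role described here, were 29.2% lower and 26.9% higher under shRASSF2-1. Under shRASSF2-2 they were 29.1% and 31.8%, near the counts of this family, and 16.7% were called lower with both. KPNA2, the adaptor most tied to dividing cells, lies at chromosome 17, 68035735 to 68046854. Its values were 5362, 5989 and 5198 in shCTRL, 1535, 1624 and 1519 under shRASSF2-1, and 1221, 1405 and 1185 under shRASSF2-2. KPNA2 fell by 1.82 (SE 0.0910, limma adjusted p = 1.97e-07) and by 2.12 (limma adjusted p = 2.68e-08), the largest falls of the family with either hairpin. All 6 knockdown values were below the lowest control, and the shRASSF2-2 values were below those of shRASSF2-1. The difference of -0.30 between the hairpins (limma adjusted p = 0.0161) was lost without shRASSF2-1 replicate 2 (0.0644), shRASSF2-2 replicate 1 (0.0625) or shRASSF2-2 replicate 3 (0.0710).

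KPNA1, an adaptor of another importin alpha subfamily, was called in opposite directions. It lies on the minus strand of chromosome 3, 122421902 to 122514939. KPNA1 had 1837, 1843 and 1781 reads in shCTRL, 1286, 1157 and 1188 under shRASSF2-1, and 3196, 3254 and 3189 under shRASSF2-2. Every shRASSF2-1 library was below the controls and every shRASSF2-2 library above them. The log2 fold changes of KPNA1 were -0.59 (SE 0.0720, limma adjusted p = 6.29e-05) and 0.82 (limma adjusted p = 3.49e-06), and the hairpins differed by 1.41 (limma adjusted p = 8.27e-08). An annotated antisense transcript, not among the deposited genes, shares 16.3% of the exonic length of KPNA1. No source used here states the strand setting of the counting.

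KPNA5, of the same subfamily as KPNA1, was the least abundant adaptor, at 4.81 normalized reads per kb of exon in the controls. Its values were 71.4, 52.3 and 41.2 in shCTRL, 90.5, 84.0 and 89.8 under shRASSF2-1, and 79.4, 110.1 and 95.6 under shRASSF2-2. All 6 knockdown values were above the controls, although by little over control replicate 1. KPNA5 rose by 0.71 (SE 0.222, limma adjusted p = 0.0198) and by 0.80 (limma adjusted p = 0.00945). The call under shRASSF2-1 was lost without shCTRL replicate 2 (0.0507) or 3 (0.0672), or without shRASSF2-1 replicate 1 (0.0571) or 3 (0.0567). KPNA3 and KPNA4 form the remaining subfamily: KPNA3 was at -0.23 under shRASSF2-1 (limma adjusted p = 0.0342) and 0.02 under shRASSF2-2, and KPNA4 was called in neither comparison, at -0.13 and -0.05. When scaled by total reads, KPNA3 and KPNA4 instead stood above the controls under shRASSF2-1, at 0.14 and 0.25. The KPNA3 call was lost when any of 7 single libraries other than shCTRL replicates 1 and 3 was left out. KPNA6 was at -0.29 and -0.35, called under shRASSF2-2 (limma adjusted p = 0.0452), and that call was lost without any one of the 6 knockdown libraries. It was also lost with flow cell as a covariate (-0.15, limma adjusted p = 0.515) and on the shared flow cell alone (-0.15, 0.184). Under shRASSF2-1 KPNA6 was called without shCTRL replicate 3 (-0.39, limma adjusted p = 0.0351).

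Shares within a library do not depend on the scaling. Of the summed importin alpha level per kb, KPNA2 made up 58.7%, 62.4% and 61.2% in shCTRL, 33.9%, 36.9% and 33.6% under shRASSF2-1, and 23.9%, 26.4% and 23.5% under shRASSF2-2. The 3 groups were fully separate, and the KPNA2 share was smaller in every knockdown library than in any control. It was still the largest share in all shRASSF2-1 libraries, where KPNA3 was at 23.3%, 23.0% and 24.1%. Under shRASSF2-2 KPNA3 was at 25.3%, 23.2% and 24.6%, above KPNA2 in replicates 1 and 3. KPNA1 made up 7.47% ± 0.325 (SD, n = 3) in shCTRL, 10.0% ± 0.463 under shRASSF2-1 and 23.2% ± 0.389 under shRASSF2-2. KPNA3 went from 13.7% of the family in the controls to 23.4% and 24.4%, while its own log2 fold changes were -0.23 and 0.02. The ratio of KPNA1 to KPNA2 in normalized reads was 0.331, 0.778 and 2.54 in the 3 groups.

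**Figure D3:**
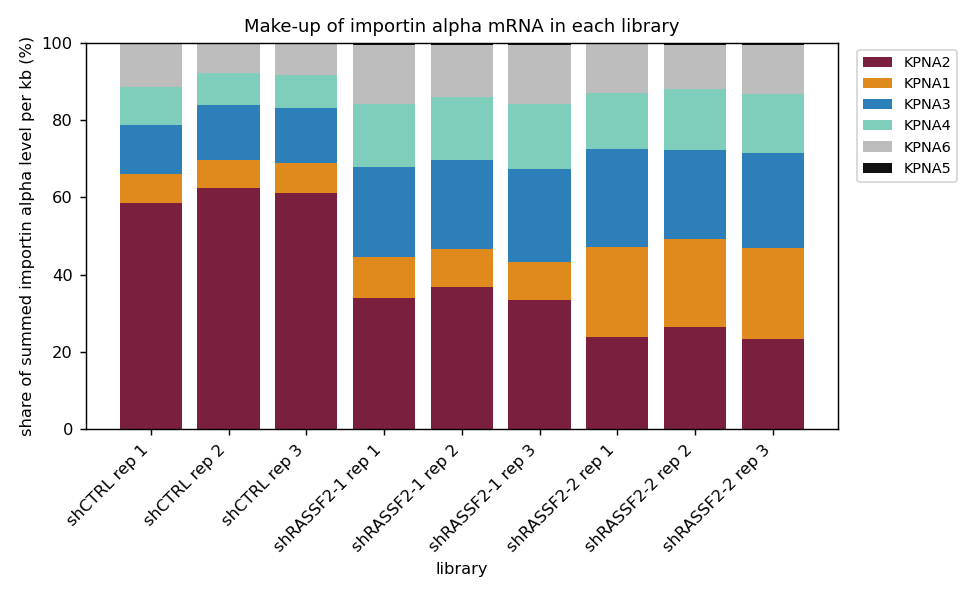
Stacked bars of the share of each importin alpha gene in the summed level per kb of exon, in percent, for each of the 9 libraries. KPNA2 takes 58.7% to 62.4% of the bar in the controls and 23.5% to 36.9% in the knockdown libraries, while the KPNA1 part is widest under shRASSF2-2.

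In the importin beta family, 8 of 9 genes fell under shRASSF2-1, and 5 fell and 1 rose under shRASSF2-2. KPNB1, the partner of the importin alphas, lies at chromosome 17, 47649919 to 47685505. Its values were 8919, 8158 and 7527 in shCTRL, 3281, 3203 and 3314 under shRASSF2-1, and 6683, 7498 and 7074 under shRASSF2-2. The shRASSF2-1 libraries stood far below all others, and the shRASSF2-2 libraries lay just under the lowest control. KPNB1 fell by 1.32 under shRASSF2-1 (SE 0.0859, limma adjusted p = 9.05e-07). Under shRASSF2-2 it was at -0.21 (limma adjusted p = 0.0560), just past the threshold. There KPNB1 was called by edgeR (adjusted p = 0.0393) and by DESeq2 (adjusted p = 0.0318). Limma called it with TMM scaling (adjusted p = 0.0381), with total reads (0.0255) and without shCTRL replicate 3 (0.0219). The hairpins differed by 1.12 (limma adjusted p = 1.68e-06).

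TNPO1, transportin 1, imports RNA-binding proteins such as the hnRNPs and lies at chromosome 5, 72816661 to 72914388. TNPO1 had 8924, 9609 and 8884 reads in shCTRL, 4493, 4316 and 4626 under shRASSF2-1, and 12769, 12207 and 13429.9 under shRASSF2-2. The groups did not overlap, with the controls in the middle. Its log2 fold changes were -1.03 (SE 0.0790, limma adjusted p = 2.70e-06) and 0.49 (limma adjusted p = 0.000336), and the difference between the hairpins, 1.51, was the largest of the 48 genes (limma adjusted p = 9.53e-08). Per kb of exon, TNPO1 was at 763 normalized reads in shCTRL, under KPNB1 at 1068, and at 1069 under shRASSF2-2, over KPNB1 at 923. Within a library, the ratio of TNPO1 to KPNB1 reads was 1.12 ± 0.103 (SD, n = 3) in shCTRL, 1.37 ± 0.0242 under shRASSF2-1 and 1.81 ± 0.160 under shRASSF2-2.

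IPO4, a carrier of histones and ribosomal proteins, showed the opposite order. Its values were 928, 819.6 and 767 in shCTRL, 632, 579 and 621 under shRASSF2-1, and 255, 212 and 251 under shRASSF2-2. IPO4 fell by 0.45 (SE 0.110, limma adjusted p = 0.00543) and by 1.80 (limma adjusted p = 2.42e-07), with no overlap between the 3 groups. The smaller fall was not called when scaled by total reads (-0.07, limma adjusted p = 0.569) or with flow cell as a covariate (-0.33, 0.109). Another annotated gene on the same strand shares 69.3% of the exonic length of IPO4, and it is not among the deposited genes. The counts of IPO4 may be uncertain for this reason, which was not tested. IPO11, which imports ubiquitin-conjugating enzymes, had 458, 386 and 338 reads in shCTRL, 173, 190.1 and 142 under shRASSF2-1, and 192, 166 and 212 under shRASSF2-2. Both knockdown groups lay below the controls and overlapped each other. IPO11 fell by 1.22 (SE 0.161, limma adjusted p = 0.000109) and by 1.05 (limma adjusted p = 0.000228).

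Of the remaining importins, IPO5, a carrier of ribosomal proteins and core histones, fell by 0.68 and 1.02. IPO7, which carries ribosomal proteins and linker histones, fell by 0.62 and 0.55, and IPO9, a histone carrier, fell by 0.36 and 0.87. With scaling by total reads, neither IPO7 (-0.24, limma adjusted p = 0.190) nor IPO9 (0.01, 0.883) was called under shRASSF2-1. The IPO9 fall there was not called with flow cell as a covariate either (-0.28, limma adjusted p = 0.0523). IPO8, a relative of IPO7, was at -0.28 under shRASSF2-1 (limma adjusted p = 0.0256) and at 0.01 under shRASSF2-2, and the first call was lost without any one of shCTRL replicates 2 and 3 and the 3 shRASSF2-1 libraries. With total reads IPO8 was at 0.09 under shRASSF2-1, and a flow cell covariate gave -0.33 (limma adjusted p = 0.0734). IPO13, which both imports and exports, was called with neither hairpin, at -0.21 and -0.01, and under shRASSF2-1 it was at -0.29 without shCTRL replicate 3 (limma adjusted p = 0.0454).

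All 7 exportins fell under shRASSF2-1, and under shRASSF2-2 5 fell, 1 rose and 1 was not called. CSE1L, which sends importin alpha back to the cytoplasm, lies at chromosome 20, 49046312 to 49096949, and its fall under shRASSF2-1 was the deepest of the 48 genes. Its values were 3770.2, 4102 and 3656 in shCTRL, 886, 976 and 933 under shRASSF2-1, and 1107, 1211 and 1173 under shRASSF2-2. The 3 groups were fully separate, with the controls far above both hairpins. CSE1L fell by 2.04 (SE 0.0805, limma adjusted p = 7.26e-08) and by 1.72 (limma adjusted p = 4.37e-08). KPNA2 and CSE1L, an adaptor and its recycling factor, were both more than 2-fold lower with both hairpins.

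XPO1, the exporter of proteins with leucine-rich signals, had 7233, 9779.6 and 10360.0 reads in shCTRL, 6049.7, 5452 and 5704 under shRASSF2-1, and 10056, 9676 and 10312 under shRASSF2-2. The shRASSF2-1 values were below all controls, and the shRASSF2-2 values overlapped them. XPO1 fell by 0.65 (SE 0.126, limma adjusted p = 0.00134) under shRASSF2-1 and was at 0.15 under shRASSF2-2 (limma adjusted p = 0.321). The hairpins differed by 0.80 (limma adjusted p = 0.000295). With total reads the fall under shRASSF2-1 was not called (-0.28, limma adjusted p = 0.0978). The ratio of XPO1 to CSE1L reads within a library was 2.38 in shCTRL, 6.18 under shRASSF2-1 and 8.62 under shRASSF2-2.

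XPO6, the exporter of actin and profilin, was the third gene called in opposite directions. It had 2460.3, 2292 and 2120.2 reads in shCTRL, 1796, 1854 and 1791 under shRASSF2-1, and 3256, 3151 and 3087 under shRASSF2-2. The controls again lay between the hairpins without overlap. XPO6 was at -0.33 (SE 0.0773, limma adjusted p = 0.00402) and 0.47 (limma adjusted p = 0.000375). The fall under shRASSF2-1 was not called with total reads, where it was at 0.04, or with flow cell as a covariate (-0.23, limma adjusted p = 0.0970). XPO5, the exporter of microRNA precursors, fell by 1.21 and 0.80, and XPOT, the exporter of tRNAs, by 0.40 and 0.73. With total reads the fall of XPOT under shRASSF2-1 was not called (-0.03, limma adjusted p = 0.860). XPO7, a receptor with both import and export cargo, fell by 0.86 and 0.62. XPO4, which carries a translation factor out of the nucleus, fell by 0.75 and 0.50. In the direct comparison, 6 exportins were called higher under shRASSF2-2 than under shRASSF2-1 and XPOT lower. With total reads only XPO1 and XPO6 of these were higher, and CSE1L, XPO4 and XPO7 stood at -0.07, -0.14 and -0.15. The calls of XPO4, XPO7 and XPOT were each lost without 1 of several single libraries.

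**Figure D4:**
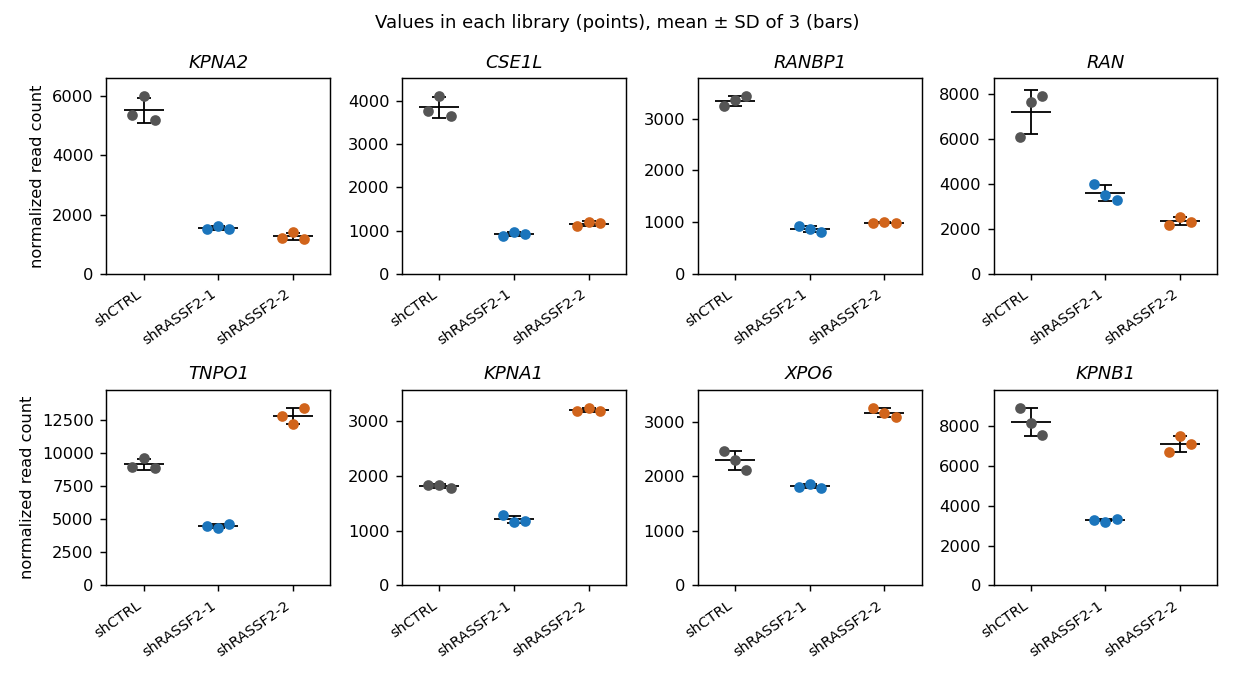
Normalized read counts of 8 transport genes in each library (points), with the mean and SD of 3 libraries per group (bars); each axis starts at 0. KPNA2, CSE1L, RANBP1 and RAN are below the controls in all 6 knockdown libraries, while TNPO1, KPNA1 and XPO6 are lower under shRASSF2-1 and higher under shRASSF2-2, and KPNB1 is far lower under shRASSF2-1 than in the other groups.

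In the Y complex, the outer ring scaffold that also binds chromatin in mitosis, 3 of 6 genes fell under shRASSF2-1 and 6 of 6 under shRASSF2-2. NUP160 had 2399.8, 2808 and 2851 reads in shCTRL, 2272, 2202 and 2303 under shRASSF2-1, and 1509, 1536 and 1453 under shRASSF2-2. The shRASSF2-1 values lay just below the lowest control and the shRASSF2-2 values well below it. NUP160 was at -0.25 (SE 0.0839, limma adjusted p = 0.0287) and -0.84 (limma adjusted p = 9.72e-06). The former call was lost without shCTRL replicate 2 (0.0915) or 3 (0.0839), or without any of the 3 shRASSF2-1 libraries (0.0594 to 0.0945), and it stood at 0.13 with total reads.

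NUP107, whose loss destabilises the Y complex, had 1067, 1824 and 1919 reads in shCTRL, 1621, 1431 and 1423 under shRASSF2-1, and 740.3, 801 and 867 under shRASSF2-2. Control replicate 1 lay below the shRASSF2-1 libraries, and the other 2 controls lay above them. NUP107 was not called under shRASSF2-1 (-0.06, SE 0.190, limma adjusted p = 0.810), and without shCTRL replicate 1 it was (-0.33, limma adjusted p = 0.00242). Under shRASSF2-2 it fell by 0.95 (limma adjusted p = 0.00136). NUP37 and NUP43 were also low in that replicate. Under shRASSF2-1 they were at -0.38 and -0.22 with no call, and at -0.59 (limma adjusted p = 7.95e-05) and -0.46 (0.000248) without it. With all libraries, NUP37 was called lower there by edgeR (adjusted p = 0.0445) and by DESeq2 (adjusted p = 0.0371). Under shRASSF2-2, NUP37 fell by 0.94 and NUP43 by 0.52 (limma adjusted p = 0.0248). The NUP43 call was lost without shCTRL replicate 2 (0.10) or 3 (0.0780), or without shRASSF2-2 replicate 1 (0.0802) or 3 (0.0688). NUP133 fell by 0.84 and 0.55, and NUP85 by 0.31 and 0.65. The NUP85 call under shRASSF2-1 was lost without shRASSF2-1 replicate 3 (limma adjusted p = 0.0599), and NUP85 stood at 0.06 with total reads.

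In the inner ring, which anchors the channel, 4 of 5 genes fell under shRASSF2-1 and 5 of 5 under shRASSF2-2. NUP155, a membrane-binding ring subunit, had 4732, 3010.2 and 2628 reads in shCTRL, 1505, 1566 and 1566 under shRASSF2-1, and 1207, 1198 and 1106 under shRASSF2-2. Control replicate 1 was by far the highest, and the 3 groups did not overlap. NUP155 fell by 1.11 (SE 0.175, limma adjusted p = 0.000351) and by 1.52 (limma adjusted p = 2.82e-05). NUP205, a large scaffold of the ring, had 3634, 3221 and 3028 reads in shCTRL, 1388, 1484 and 1546 under shRASSF2-1, and 2175, 2054 and 2171 under shRASSF2-2. Here the lowest values were those of shRASSF2-1. NUP205 fell by 1.16 (SE 0.0872, limma adjusted p = 2.38e-06) and by 0.62 (limma adjusted p = 0.000116), a difference of 0.54 (limma adjusted p = 0.000393) that was not called with total reads (0.14, 0.145). Its relative NUP188 fell by 1.04 and 0.96, and NUP93, the hub that ties the ring to the channel, by 0.60 and 0.46. With total reads NUP93 was not called under shRASSF2-1 (-0.22, limma adjusted p = 0.0543). NUP35 was at -0.03 under shRASSF2-1, not called, and fell by 0.79 under shRASSF2-2.

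Among the nucleoporins of the central channel, 3 of 4 fell under shRASSF2-1 and 2 of 4 under shRASSF2-2. NUP98, whose repeats form the permeability barrier and whose gene also encodes a Y complex subunit, had 4317, 3742 and 3338 reads in shCTRL, 2443, 2546 and 2808 under shRASSF2-1, and 2950.0, 2950.3 and 2890.2 under shRASSF2-2. All knockdown values were under the lowest control. NUP98 was at -0.54 (SE 0.10, limma adjusted p = 0.00104) and -0.37 (limma adjusted p = 0.00898). The former was not called with total reads (-0.16, limma adjusted p = 0.139). The latter was not called with flow cell as a covariate (-0.19, limma adjusted p = 0.225) or on the shared flow cell alone (-0.19, 0.0625). NUP62, which forms a channel complex with NUP54 and NUP58, fell by 0.80 under shRASSF2-1 and was at -0.21 under shRASSF2-2 (limma adjusted p = 0.0794), called without shCTRL replicate 3 (-0.28, 0.0371). NUP58 fell by 0.58 and 0.42, the former not called with total reads (-0.20, limma adjusted p = 0.112), whereas NUP54 was called with neither hairpin, at 0.11 and -0.06, and under shRASSF2-1 was called higher with total reads (0.48, limma adjusted p = 0.00453).

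At the cytoplasmic face, NUP88 fell with both hairpins and RANBP2 with neither. NUP88 had 508, 546 and 575 reads in shCTRL, 223, 191 and 189.6 under shRASSF2-1, and 195, 222 and 239.6 under shRASSF2-2. The knockdown groups overlapped each other far below the controls. NUP88 fell by 1.43 (SE 0.121, limma adjusted p = 5.17e-06) and by 1.31 (limma adjusted p = 5.27e-06). NUP214, its binding partner in the filaments, was at -0.07 under shRASSF2-1 and -0.48 under shRASSF2-2 (limma adjusted p = 0.0304). Without shCTRL replicate 1, NUP214 was called higher under shRASSF2-1 (0.17, limma adjusted p = 0.0333), and its call under shRASSF2-2 was lost without any one shRASSF2-2 library, with flow cell as a covariate (-0.16, limma adjusted p = 0.545) and on the shared flow cell alone (-0.16, 0.0963). RANBP2, the filament protein that holds RANGAP1 at the pore, had 7299, 4743 and 4169 reads in shCTRL, 4143, 4563 and 4783 under shRASSF2-1, and 4360.4, 4548 and 4506 under shRASSF2-2. Only control replicate 1 stood apart, and the other 8 libraries overlapped. RANBP2 was at -0.22 (SE 0.171, limma adjusted p = 0.285) and -0.23 (limma adjusted p = 0.266), and at -0.40 under shRASSF2-2 (limma adjusted p = 0.0482) without shCTRL replicate 3. The table also lists 7 near-identical RGPD copies of RANBP2, so its reads can be split.

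The nuclear basket genes both fell with both hairpins. NUP50, a basket protein that helps release importin alpha from its cargo, had 4584, 3527 and 3160 reads in shCTRL, 2033, 2237 and 2359.6 under shRASSF2-1, and 2069, 2109 and 2003 under shRASSF2-2. NUP50 fell by 0.75 (SE 0.126, limma adjusted p = 0.000538) and by 0.85 (limma adjusted p = 0.000172), and the knockdown groups overlapped each other. NUP153, which tethers the basket, fell by 0.86 and 0.39, and the latter was not called with flow cell as a covariate (-0.29, limma adjusted p = 0.0711).

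NUP210, a membrane glycoprotein of the pore that is not part of every cell's pore, had the highest control replicate 1 relative to the other controls. Its values were 12004, 6509.5 and 5808 in shCTRL, 3409, 3856 and 4005 under shRASSF2-1, and 1935, 2037 and 1826 under shRASSF2-2. The 3 groups were separate, with control replicate 1 far above the rest. NUP210 was at -1.04 (SE 0.219, limma adjusted p = 0.00239) and -1.99 (limma adjusted p = 1.97e-05), and with flow cell as a covariate the former was not called (-0.63, 0.0771). The difference between the hairpins was -0.96 (limma adjusted p = 0.00349). NUP210L had 19.4, 8.30 and 14.1 reads in shCTRL, 4.76, 6.19 and 0.907 under shRASSF2-1, and 5.67, 2.27 and 4.40 under shRASSF2-2. It was left out of the main test, and with no filter it was called lower with both hairpins.

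The hairpins also differed from each other, at rates near those over all genes, so these counts do not set the transport genes apart. In the direct comparison, 15 genes were higher and 14 lower under shRASSF2-2 than under shRASSF2-1, where 58.5% of all genes tested were called, 30.0% higher and 28.5% lower. The values of the hairpins did not overlap for 37 genes, 20 higher and 17 lower under shRASSF2-2, against 36.8% and 37.2% of all genes. Of the 29 genes that fell with both hairpins, 11 were lower still under shRASSF2-2, 7 were higher and 11 were not called. Opposite calls against the control were made for KPNA1, TNPO1 and XPO6 with all libraries in the fit, and 8.05% of all genes tested had opposite calls. RASSF2 itself differed between the hairpins by 0.93 (limma adjusted p = 0.000430), being lower under shRASSF2-1, and the summed level of 10 myeloid markers was 24490 to 28260 in shCTRL, 21390 to 22360 under shRASSF2-1 and 47530 to 49180 under shRASSF2-2. CD68 and CSF1R had the highest means of the 10 under shRASSF2-2, at 18442 and 9968, against 3641 and 2500 in shCTRL. The mean of LYZ was 7012 in shCTRL and 2828 under shRASSF2-2. Of the 10 markers 4 fell and 3 rose under shRASSF2-1, where 29.2% of all genes tested were lower and 26.9% higher. Under shRASSF2-2, 3 fell and 5 rose, against 29.1% and 31.8%. The part of the markers in these differences was not tested. Keratin and mucosal transcripts of an epithelial list also varied, and were lowest in control replicates 1 and 2, the libraries on the other flow cell. KRT8 was at 16.9 and 21.6 in control replicates 1 and 2, at 198 in control replicate 3, and at 106 to 496 in the knockdown libraries. FCGBP was at 3.63 and 2.49 in control replicates 1 and 2, at 331 in control replicate 3, and at 119 to 1545 in the knockdown libraries. That list summed to 20.6 to 719.8 in shCTRL, 400.1 to 2253 under shRASSF2-1 and 1551 to 1953 under shRASSF2-2, and 3 of its 4 genes tested rose with the former and 4 with the latter. None of the 4 was called between the hairpins. With 1 control on the shared flow cell, these rises and a difference between flow cells cannot be told apart. The connective tissue list summed to 62.3 to 116, 140.0 to 717.0 and 345.8 to 778.0 in the 3 groups, the B cell list to 652 to 1260.0, 278 to 298 and 1492 to 1637, and the T cell and erythroid lists to at most 43.5 and 9.98 in any library. COL1A2 and SLC4A1 were at 0 in all controls, and the part of these lists in the transport genes was not tested.

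Scaling by total reads shifted every estimate under shRASSF2-1 upward by nearly the same amount. With it, 24 transport genes fell and 3 rose under shRASSF2-1, against 16.8% of all genes called lower and 45.1% higher. Under shRASSF2-2, 37 fell and 4 rose, against 29.4% and 31.0%. The count lower with both was 22, and 20 of the 29 genes named lower with both by the size factors remained, against 10.8% of all genes. KPNA2 was at -1.44, CSE1L at -1.66, RANBP1 at -1.55, RCC1 at -0.97 and RAN at -0.62 for shRASSF2-1 when scaled this way. TNPO1 was at -0.65 and KPNA1 at -0.21, so both kept their opposite calls. Under shRASSF2-1, 7 genes called with neither scaling also changed sign, namely IPO13 to 0.17, KPNA6 to 0.09, NUP107 to 0.32, NUP35 to 0.35, NUP43 to 0.15, NUP214 to 0.31 and RANBP2 to 0.15. In the direct comparison, 26 genes were then lower and 5 higher under shRASSF2-2, against 47.3% and 18.8% of all genes, a different split from 14 and 15. The 5 higher ones were TNPO1 at 1.12, KPNA1 at 1.02, KPNB1 at 0.72, XPO1 at 0.41 and XPO6 at 0.41.

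**Figure D5:**
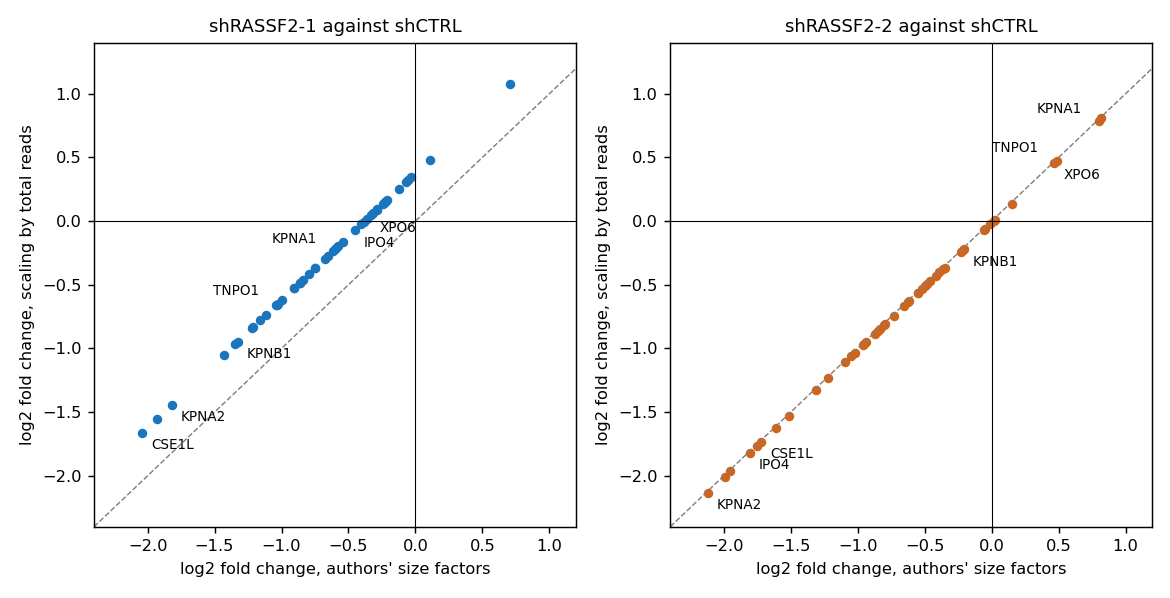
Log2 fold changes against shCTRL of the 48 genes tested, with the authors' size factors on the horizontal axis and total-read scaling on the vertical axis, for shRASSF2-1 (left) and shRASSF2-2 (right). The dashed line marks equal values. Points for shRASSF2-1 lie above it by nearly the same amount, as in the shift of 0.37 over all genes, and points for shRASSF2-2 lie on it.

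Transport genes outside the symbol rule were mostly lower as well. Of 49 further listed genes, 45 were tested. Under shRASSF2-1, 25 fell and 3 rose, with a median log2 fold change of -0.36, and under shRASSF2-2 25 fell and 3 rose, with a median of -0.39. Both hairpins lowered 19 and raised 2. Of all genes tested, 29.2% and 29.1% were called lower and 26.9% and 31.8% higher with the respective hairpins, 16.7% lower with both and 14.5% higher with both. Of 11 other pore proteins, 8 fell under shRASSF2-1 and 7 under shRASSF2-2, and none rose. NDC1, a membrane anchor of the pore, had 2841, 3480.2 and 3202 reads in shCTRL, 1396, 1322 and 1358 under shRASSF2-1, and 630.4, 610.5 and 626 under shRASSF2-2. The groups were separate, and NDC1 was at -1.22 (limma adjusted p = 1.59e-06) and -2.34 (limma adjusted p = 1.16e-08). SEH1L, a Y complex subunit, fell, at -1.01 and -0.83, as did AHCTF1, which brings the Y complex to chromatin, at -0.62 and -1.36.

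In mRNA export, which uses adaptors and the NXF1 receptor rather than RAN, 14 of 20 genes fell under shRASSF2-1 and none rose, and 12 fell and 1 rose under shRASSF2-2. The one that rose was NXF1 itself, named after its values were seen, at 0.66 (limma adjusted p = 0.0218). ALYREF, an adaptor that joins spliced mRNA to the receptor, had 4475, 2672 and 2504 reads in shCTRL, 943, 899 and 962 under shRASSF2-1, and 1039.6, 988 and 929 under shRASSF2-2. All knockdown libraries lay far below the controls. ALYREF fell by 1.73 (limma adjusted p = 2.18e-05) and by 1.66 (limma adjusted p = 1.90e-05). The cofactors of NXF1 also fell, NXT1 at -1.39 and -1.93 and NXT2 at -1.87 and -1.64. The 14 other receptors and RAN factors showed no common direction: 3 fell and 3 rose under shRASSF2-1, and 6 fell and 2 rose under shRASSF2-2. In the nuclear lamina and envelope list, 9 of 13 genes fell and 2 rose under shRASSF2-1, and 5 fell and 5 rose under shRASSF2-2. The latter counts were near the shares over all genes tested, 29.1% lower and 31.8% higher.

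In the authors' deposited table, which gives 1 comparison of knockdown with control, 30 of the 49 genes had an adjusted p under 0.05, 29 lower and KPNA5 higher. The 29 include NUP210L (-1.53, authors' adjusted p = 0.0175), which the filter used here left out. The same count over all genes was not made, so these counts do not show whether transport genes stood out there. In the authors' deposited table the log2 fold change was -1.94 for KPNA2 and -1.86 for CSE1L. For TNPO1 and KPNA1 the authors' deposited table gives -0.07 (adjusted p = 0.914) and 0.26 (adjusted p = 0.659). The header does not say which libraries that comparison used.

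Some counts may hold reads of other genes. Another annotated gene overlaps 17.0% of the exonic length of IPO11, 10.4% of NUP62, 9.82% of NUP88, 8.5% of RANBP1 and 6.22% of RCC1. Copies or pseudogenes are annotated for NUTF2 (7), KPNA2 (3), TNPO1 (3) and NUP210 (3), none of them among the deposited genes.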

How the data were processed

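The data were poly(A) RNA sequencing libraries of THP-1 cells, 3 per group. The deposited gene values were a normalized signal, namely read counts scaled by 1 size factor for each library. This was read from the values, since 100% were whole multiples of the smallest one in each library, to within 0.001. The submitters' processing notes name HISAT2 2.1.0, Picard, featureCounts 1.6.2, DESeq2 1.18.1 and hg38. Annotation and strand setting are not given in the sources used here. Per the file headers, the authors' table also holds a log2 fold change and its adjusted p-value.

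The main test was limma 3.58.1 (R 4.3.3) with a mean-variance trend on log2(value + 1), fitted to all 9 libraries. A minimum of 10 in 3 or more libraries kept 15465 genes and left out 3057. P-values were Benjamini-Hochberg adjusted over these genes, and fold changes are on the log2(value + 1) scale. Recovered counts were also tested with edgeR 4.0.16 and DESeq2 1.42.0. Other alternatives were total-read and TMM scaling, other filters and pseudocounts, a replicate block, flow cell as a covariate, the shared flow cell alone, and leaving out each library. The fits were tested on simulated data.

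The genes, roles and lists were chosen with earlier results of these data known. Values per library are given for genes that moved most in the same direction with both hairpins, differed most between hairpins, moved in opposite directions or had the highest mean value of their role. The within-library ratios and the promoters shown were chosen after their values were seen. Levels per kb used GENCODE 29 exonic lengths, and positions are RefSeq GRCh38.p14.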

Additional observations from a re-analysis of the deposited data

Results flagged for a closer look

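For 3 genes every shRASSF2-1 library lay below the controls and every shRASSF2-2 library above them, with the difference between the hairpins itself called by limma. That difference, shRASSF2-2 minus shRASSF2-1 on the log2 scale, was 1.515 for TNPO1 (limma adjusted p = 9.53e-08), 1.409 for KPNA1 (limma adjusted p = 8.27e-08) and 0.803 for XPO6 (limma adjusted p = 8.94e-06). With scaling by total reads the differences were 1.12, 1.02 and 0.41, each in the same direction. The opposite calls against shCTRL held for TNPO1 and KPNA1 with that scaling, while the call of XPO6 under shRASSF2-1 was lost with it (0.04, limma adjusted p = 0.618) and with flow cell as a covariate (-0.23, limma adjusted p = 0.0970). Of all genes tested, 8.05% had opposite calls against shCTRL, so 3 of the 48 transport genes is no more than that share. No explanation was tested.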

How the results depend on the processing

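The 38 calls with shRASSF2-1 became 27 with scaling by total reads, 32 with flow cell as a covariate and 42 on the shared flow cell, and ran from 33 to 42 with 1 library left out. The 39 calls with shRASSF2-2 ran from 36 to 41 with 1 library left out, and the 29 between hairpins from 21 to 36. Shares over all genes were counted only for the main fit and for total reads. Under the other settings, changes in the counts of this section may follow a change over all genes. The 30 genes called in the same direction with both became 23 with total reads, 25 with the covariate and 32 on the shared flow cell, and ran from 27 to 33 with 1 library left out.

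By role, genes called in the same direction with both hairpins changed as follows. The Y complex count of 3 became 1 with total reads and 6 on the shared flow cell, and ran from 1 to 6 with 1 library left out, at 6 without shCTRL replicate 1. The central channel count of 2 became 1 with total reads, 1 with the covariate and 1 on the shared flow cell, and ran from 2 to 3. The basket count of 2 became 1 and the NUP210 call (1) became 0 with the covariate, and the transmembrane count became 2 with no filter. The importin alpha count of 2 ran from 1 to 2. The importin beta family count of 5 became 3 with total reads and 3 with the covariate. The 21 other transport genes became 12 with total reads and ran from 18 to 28.

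Among changes called with either scaling, total reads turned the sign with shRASSF2-1 for IPO8 (0.093), IPO9 (0.013), KPNA3 (0.14), KPNA4 (0.25), NUP160 (0.13), NUP85 (0.064) and XPO6 (0.044). Differences between hairpins turned for CSE1L (-0.072), IPO8 (-0.092), KPNA3 (-0.14), KPNA4 (-0.31), NUP133 (-0.10), NUP188 (-0.31), NUP93 (-0.25), RANBP1 (-0.21), XPO4 (-0.14) and XPO7 (-0.15). Called with neither scaling, the differences of IPO7, IPO11, IPO13, KPNA5, NUP58, NUP88 and NUP98 also changed sign. NUP214 with shRASSF2-1 was at 0.26 on the shared flow cell and ran from -0.23 to 0.17, its value without shCTRL replicate 1, with 1 library left out. Apart from these shifts of scale, the causes were not tested.

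Replicate numbers did not pair the libraries, with correlations of deviations from -0.156 to 0.12 between same-numbered ones. With a replicate block, 36, 39 and 29 genes were called in the 3 comparisons and 29 with both hairpins. The shared flow cell holds 1 control, assumed to vary like the other groups.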
